A study of Mus musculus with 11 samples.

Results

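Carbohydrate response element binding protein (ChREBP), its obligate partner and 3 of its classical glucose-induced targets were followed in sorted mouse β-cells, to ask whether their RNA moved with glycemia or with the loss of *Raptor*. The 5 genes were *Mlxipl*, *Mlx*, *Txnip*, *Arrdc4* and *Pklr*. They were chosen by name, as 5 of the 34728 gene symbols of the deposited table, and all 5 were among the 11251 genes that reached 1 FPKM in 3 or more libraries and were tested. There were 11 libraries, 3 from WT, 4 from diabetic βRapKOGFP and 4 from euglycemic βRapKOGFP mice. All mice were 8 weeks old (males, per the methods of the study), came from the mixed background C57BL/6 x 129SV and carried RIP-Cre (Cre recombinase under the rat insulin promoter, which acts in β-cells) together with the *Rosa26* GFP reporter that Cre switches on. WT mice had intact *Raptor* (*Raptor*+/+), and the mutants had lost *Raptor*, a scaffold of the nutrient-sensing kinase complex mTORC1, wherever Cre had acted. Diabetic mutants received no insulin, whereas euglycemic mutants carried an insulin pellet for 4 weeks. The RNA came from cells sorted for GFP, so a cell that once used the insulin promoter stayed in the sort even if its hormone had changed. Blood glucose of the individual mice was not used here, and glycemia enters only through the group. Nothing states whether a library is 1 mouse or a pool of mice.

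ChREBP, encoded by *Mlxipl*, is held inactive in the cytoplasm at low glucose. When glucose 6-phosphate rises it moves to the nucleus, pairs with MLX and binds carbohydrate response elements (ChoREs), which are paired E-box-like elements. *Txnip*, an α-arrestin that binds thioredoxin and lowers glucose uptake, its relative *Arrdc4*, and *Pklr*, the liver and red cell form of pyruvate kinase, are targets known from β-cells and liver. *Txnip* is one of the RNAs that high glucose raises most in islets. MondoA, encoded by *Mlxip*, is a close relative of ChREBP that shares its partner.

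The promoter windows below, from 250 bases before to 50 bases after a start site in RefSeq (build GRCm38.p6), are shown because ChREBP acts on DNA through such elements, and the windows differ in the matches they hold. Capitals mark a match to the ChoRE form in *Txnip* and *Pklr* and an E-box in *Arrdc4* and *Mlxipl*. The ChoRE form searched was CACGNG, 5 bases of any kind and CNCGNG, on both strands, and the E-box was CACGTG, which reads the same on both strands. CACGTG itself satisfies the first element of the ChoRE form, so the searches can overlap.
*Txnip* (chr3:96557707-96558006, plus strand): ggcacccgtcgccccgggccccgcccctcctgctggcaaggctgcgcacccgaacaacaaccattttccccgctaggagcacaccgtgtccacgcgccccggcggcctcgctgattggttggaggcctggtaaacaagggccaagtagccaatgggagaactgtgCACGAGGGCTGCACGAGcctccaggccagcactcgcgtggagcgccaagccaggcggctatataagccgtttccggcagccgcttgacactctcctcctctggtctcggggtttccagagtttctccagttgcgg
*Pklr*, downstream start (chr3:89136373-89136672, plus strand): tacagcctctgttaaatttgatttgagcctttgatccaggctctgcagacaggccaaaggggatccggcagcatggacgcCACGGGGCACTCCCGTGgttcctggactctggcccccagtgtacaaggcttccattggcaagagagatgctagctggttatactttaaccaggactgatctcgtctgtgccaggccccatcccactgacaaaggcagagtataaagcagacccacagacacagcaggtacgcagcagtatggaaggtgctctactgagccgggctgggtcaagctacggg
*Arrdc4* (chr7:68749189-68749488, minus strand): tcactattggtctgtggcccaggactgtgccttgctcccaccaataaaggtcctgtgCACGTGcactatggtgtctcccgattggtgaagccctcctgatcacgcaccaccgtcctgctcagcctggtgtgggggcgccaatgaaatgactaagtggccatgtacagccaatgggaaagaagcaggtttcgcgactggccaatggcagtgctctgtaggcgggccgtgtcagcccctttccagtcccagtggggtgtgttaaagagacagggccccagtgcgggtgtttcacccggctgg
*Mlxipl*, upstream start (chr5:135089640-135089939, plus strand): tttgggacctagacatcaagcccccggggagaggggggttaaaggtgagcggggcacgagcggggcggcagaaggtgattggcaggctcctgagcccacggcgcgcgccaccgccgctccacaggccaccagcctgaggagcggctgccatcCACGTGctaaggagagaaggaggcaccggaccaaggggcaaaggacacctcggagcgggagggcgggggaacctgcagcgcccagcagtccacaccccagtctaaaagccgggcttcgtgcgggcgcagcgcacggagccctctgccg

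RefSeq gave 7 windows for the 5 genes. The ChoRE form occurred in *Txnip*, where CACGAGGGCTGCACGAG begins 85 bases before the start, and in the downstream window of *Pklr*, where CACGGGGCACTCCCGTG begins 170 bases before the start. Among all 32851 windows of this length, 0.365% held it. The E-box occurred in *Mlxipl* (from -98), *Mlx* (from -40) and *Arrdc4* (from -193), against 7.15% of all windows. The second *Mlxipl* window and the upstream *Pklr* window held neither. A match is a description of these letters and not a measured binding site.

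*Mlxipl* (ENSMUSG00000005373, GRCm38 chromosome 5 from 135089890 to 135138382) was expressed in every library. Its FPKM was 23.6, 45.0 and 43.3 in WT replicates 1 to 3, 29.2, 30.8, 33.1 and 33.04 in diabetic replicates 1 to 4, and 34.3, 22.3, 23.6 and 41.8 in euglycemic replicates 1 to 4. The means were 37.3 ± 11.9 (SD, n = 3), 31.5 ± 1.88 (SD, n = 4) and 30.5 ± 9.28 (SD, n = 4). The 4 diabetic libraries lay close together, inside the range of both other groups, so that the RNA of the glucose-sensing factor itself did not separate the groups. FPKM sums all transcripts of a gene, and the α and β forms of ChREBP, which start at different promoters, were not told apart.

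*Mlx* (ENSMUSG00000017801, chromosome 11 from 101087277 to 101092207), the partner without which ChREBP does not bind DNA, had 16.1, 9.33 and 15.2 FPKM in WT, 8.64, 5.84, 12.9 and 10.9 FPKM in diabetic, and 15.4, 15.1, 11.9 and 12.5 FPKM in euglycemic libraries. The means were 13.6 ± 3.69 (SD, n = 3), 9.57 ± 3.04 (SD, n = 4) and 13.7 ± 1.77 (SD, n = 4). By its limma p-value *Mlx* came closest of the 5 genes to a separation by glycemia, although by libraries *Pklr* came as close. Diabetic replicates 1, 2 and 4 lay below every euglycemic library, and diabetic replicate 3 lay inside the euglycemic range. WT replicate 2 lay inside the diabetic range.

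*Txnip* (ENSMUSG00000038393, chromosome 3 from 96557957 to 96561883) had the highest mean FPKM of the 5 genes and by far the widest range. WT replicates held 14.0, 232.5 and 193.4 FPKM. Diabetic replicates held 72.9, 13.1, 101.7 and 37.0 FPKM. Euglycemic replicates held 90.6, 151.4, 10.1 and 5.17 FPKM. Every group thus had at least 1 library near or below 14.0 FPKM and at least 1 above 100 FPKM, and the highest library was WT replicate 2. The WT mean was 146.7 ± 116.5 (SD, n = 3), the diabetic mean 56.2 ± 39.0 (SD, n = 4) and the euglycemic mean 64.3 ± 70.1 (SD, n = 4), so each SD was of the order of its mean. The highest library stood 16.6-fold above the lowest in WT, 7.74-fold in diabetic and 29.3-fold in euglycemic mice, and 45.0-fold over all 11. Scaling each library to a common sum (TPM) or by the median of ratios left this span at 48.1-fold and 42.5-fold.

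*Arrdc4* (ENSMUSG00000042659, chromosome 7 from 68736995 to 68749241) is an α-arrestin like *Txnip* and also restrains glucose uptake. Its FPKM was 3.16, 12.5 and 10.99 in WT, 11.1, 5.42, 11.2 and 7.35 in diabetic and 5.58, 15.7, 4.63 and 5.89 in euglycemic libraries. WT replicate 1 was the lowest of all 11, as the WT library with the least *Txnip*, and euglycemic replicate 2, the highest, was the euglycemic library with the most *Txnip*. The means, 8.88 ± 5.01 (SD, n = 3), 8.75 ± 2.84 (SD, n = 4) and 7.94 ± 5.18 (SD, n = 4), lay within 1 SD of each other.

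*Pklr* (ENSMUSG00000041237, chromosome 3 from 89136142 to 89146784) was the least expressed of the 5 per length. Its FPKM was 2.24, 2.47 and 2.29 in WT, 1.88, 2.18, 3.13 and 2.76 in diabetic and 1.43, 3.26, 1.29 and 0.443 in euglycemic libraries. The means were 2.33 ± 0.120 (SD, n = 3), 2.49 ± 0.563 (SD, n = 4) and 1.61 ± 1.19 (SD, n = 4). In 3 of 4 euglycemic libraries it was below every diabetic and every WT library, and euglycemic replicate 2 was the highest of all 11 on the FPKM scale (diabetic replicate 3 on TPM). The lowest value, in euglycemic replicate 4, rested on about 4.21 fragments per kilobase of transcript. *Pkm*, the muscle form of pyruvate kinase that β-cells mainly use, had 372.3 ± 15.5 (SD, n = 3), 337.2 ± 65.4 (SD, n = 4) and 316.3 ± 87.1 (SD, n = 4) FPKM in WT, diabetic and euglycemic libraries, far above *Pklr* in each of them.

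**Figure D1:**
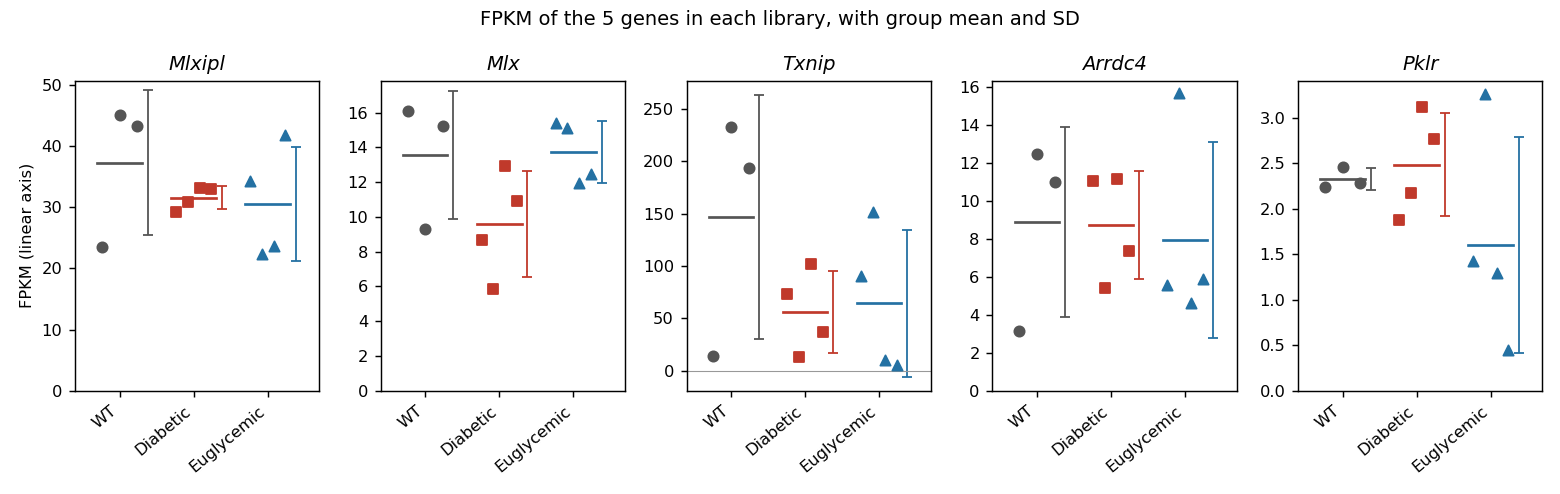
FPKM (fragments per kilobase of transcript, scaled to the fragments mapped, linear axis) of the 5 genes in each library, with 1 point per library, in WT (circles, n = 3), diabetic (squares, n = 4) and euglycemic (triangles, n = 4) βRapKOGFP β-cells, in replicate order from left to right. The short line is the group mean and the bar beside it the SD. The groups overlap in every panel, and *Txnip* runs from 5.17 to 232.5 FPKM.

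The order of the mean levels over all libraries, on the FPKM scale, which is per length, was *Txnip* (83.8), *Mlxipl* (32.7), *Mlx* (12.2), *Arrdc4* (8.49) and *Pklr* (2.12). *Txnip* crossed the levels of *Mlxipl*, *Mlx* and *Arrdc4* between libraries, and the ranges of *Mlx* (5.84 to 16.1 FPKM) and *Arrdc4* (3.16 to 15.7 FPKM) overlapped. *Mlxipl* lay above *Mlx* and *Arrdc4* in all 11 libraries. *Pklr* never reached the lowest *Mlx* value.

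Neither comparison moved the 5 genes past the test. In the limma fit of log2(FPKM + 1), a call needed a Benjamini-Hochberg adjusted p of at most 0.05 over all genes tested and a change of at least 1.5-fold. Between diabetic and euglycemic mutants, the glycemia comparison, 0 of 5 genes were called, against 0.00889% of all genes tested. Between all mutants and WT, the genotype comparison, 0 of 5 were called, against 1.05% of all genes. Diabetic against WT gave 0 of 5 (0.969% of all genes) and euglycemic against WT 0 of 5 (0.551% of all genes). At an unadjusted p of at most 0.05, 1 of 5 genes passed between diabetic and euglycemic libraries (20.6% of all genes) and 0 of 5 in the other comparisons (11.3 to 13.9% of all genes). With so small a share called among all genes, 0 of 5 says little about these genes, and the intervals below carry the information. The comparisons against WT share the WT libraries. In the glycemia comparison, glycemia and 4 weeks of insulin cannot be told apart, and in the genotype comparison 4 of the 8 mutant libraries were also diabetic. The shares over all genes rested much on single libraries. Without WT replicate 1, 3.36% of genes were called between diabetic and euglycemic libraries, 4.76% between euglycemic and WT and 0.32% between diabetic and WT. Without WT replicate 2 or 3, 0.276 and 0.267% were called between all mutants and WT, 0.231 and 0.258% between diabetic and WT, and 0.169 and 0.107% between euglycemic and WT. Without euglycemic replicate 4, 1.87% were called between diabetic and WT. Over all 11 such fits the shares ran from 0.267 to 1.57% for all mutants, 0.231 to 1.87% for diabetic and 0.107 to 4.76% for euglycemic libraries against WT, and 0 of the 5 genes were called in any of them.

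The glycemia comparison left different amounts of room for the 5 genes. On the log2(FPKM + 1) scale, *Mlxipl* was higher by 0.091 in diabetic than in euglycemic libraries (standard error 0.24, 95% interval -0.44 to 0.62, adjusted p = 0.860 from limma). *Mlx* was lower by a difference of -0.52 (standard error 0.24, interval -1.03 to -0.0017), with an unadjusted p of 0.0493 and an adjusted p of 0.241 from limma, and was -0.32 without diabetic replicate 2. *Txnip* differed by 0.52, but with a standard error of 1.08 and an interval from -1.81 to 2.85 (adjusted p = 0.811 from limma). These data therefore leave room for a *Txnip* level in diabetic mutants anywhere between 0.286 and 7.22 times that in euglycemic mutants. *Arrdc4* differed by 0.22 (interval -0.66 to 1.10, adjusted p = 0.784 from limma) and *Pklr* by 0.51 (interval -0.074 to 1.10, adjusted p = 0.297 from limma), or 0.26 without euglycemic replicate 4 and 0.79 without euglycemic replicate 2. The *Pklr* value was 0.86 with a pseudocount of 0.1, 0.79 on TPM and 0.25 with library weights, and was not called in any of these. The differences of *Txnip*, *Arrdc4* and *Pklr*, the targets that glucose induces, were all above 0, none of them beyond the spread between libraries. For *Txnip* the direction turned with the scale, since its mean FPKM was lower in diabetic (56.2) than in euglycemic (64.3) libraries.

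The genotype comparison gave 5 differences below 0, each with an interval that included 0. *Txnip* had the largest, at -1.23 between all mutants and WT (standard error 1.03, interval -3.46 to 0.998, adjusted p = 0.763 from limma). It was -0.97 between diabetic and WT libraries (interval -3.49 to 1.55) and -1.49 between euglycemic and WT libraries (interval -4.01 to 1.02). The value for all mutants hung on single WT libraries, at -2.51 without WT replicate 1 and -0.53 without WT replicate 2. *Mlxipl* differed by -0.23 (interval -0.73 to 0.28, adjusted p = 0.817 from limma), and between -0.52 and -0.067 when 1 library was left out. With library weights it was -0.55 (adjusted p = 0.0326 from limma), which missed the call by the 1.5-fold criterion. That weighted fit called 9.92% of all genes in this comparison. *Mlx* differed by -0.22 (interval -0.71 to 0.28) and *Pklr* by -0.20 (interval -0.77 to 0.36). *Arrdc4* lay at -0.0062 (interval -0.85 to 0.84), a difference whose sign changed on TPM and with smaller pseudocounts and stayed with the median of ratios (-0.015). The median difference of the 5 genes was -0.22 for genotype and 0.22 for glycemia, against -0.0035 and 0.0088 over all genes tested. Each of these medians of 5 is the value of 1 gene, *Mlx* for genotype and *Arrdc4* for glycemia. Both have intervals that include 0, so no shift of the set is shown.

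**Figure D2:**
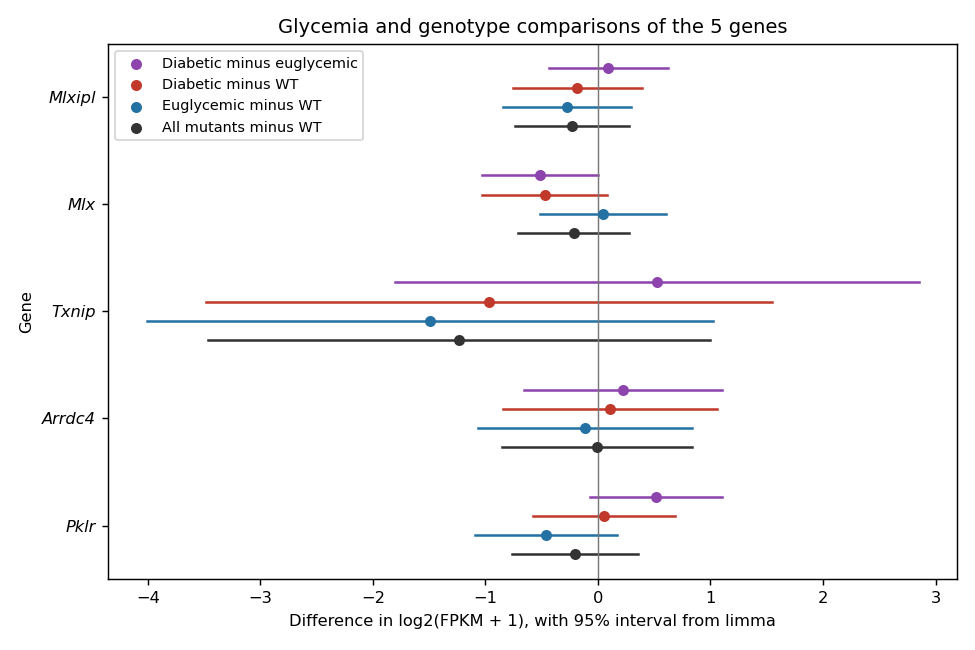
Differences in log2(FPKM + 1) of the 5 genes, with points for the limma estimates and lines for their 95% intervals, in diabetic minus euglycemic (glycemia), diabetic minus WT, euglycemic minus WT and all mutants minus WT (genotype). Every line crosses 0 except that of *Mlx* for glycemia, which ends at -0.0017, and the *Txnip* lines are the widest.

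One choice of fit gave a call. When libraries were weighted by their estimated quality, *Mlxipl* was lower in euglycemic than in WT libraries by a difference of -0.68 (adjusted p = 0.0155 from limma), against -0.27 (adjusted p = 0.666) without weights. The weighted fit called 20.3% of all genes in this comparison, so that 1 of 5 was the share of genes at large. The same weights turned the *Txnip* glycemia difference to -0.11. Leaving out euglycemic replicate 4, the library with the least *Txnip*, turned that difference to -0.26.

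Libraries of the same group differed more in *Txnip* than the groups did. The SD of log2(FPKM + 1) within groups was 1.93 for *Txnip*, rank 37 of the 11251 genes tested, so that 0.320% of genes varied more. It was 0.69 for *Arrdc4* (4.63% of genes varied more), 0.42 for *Pklr*, 0.37 for *Mlxipl* and 0.35 for *Mlx*, against a median of 0.33 over all genes tested, with quartiles at 0.25 and 0.43. The factor and its partner thus varied like a typical gene, and the α-arrestin targets varied more than most. The pseudocount compresses the spread of *Pklr*, which is low in FPKM. Its highest library stood 7.36-fold above its lowest, which rested on 4.21 fragments per kilobase, against 4.96-fold for *Arrdc4*. The lowest *Txnip* value still rested on 49.1 fragments per kilobase of transcript.

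**Figure D3:**
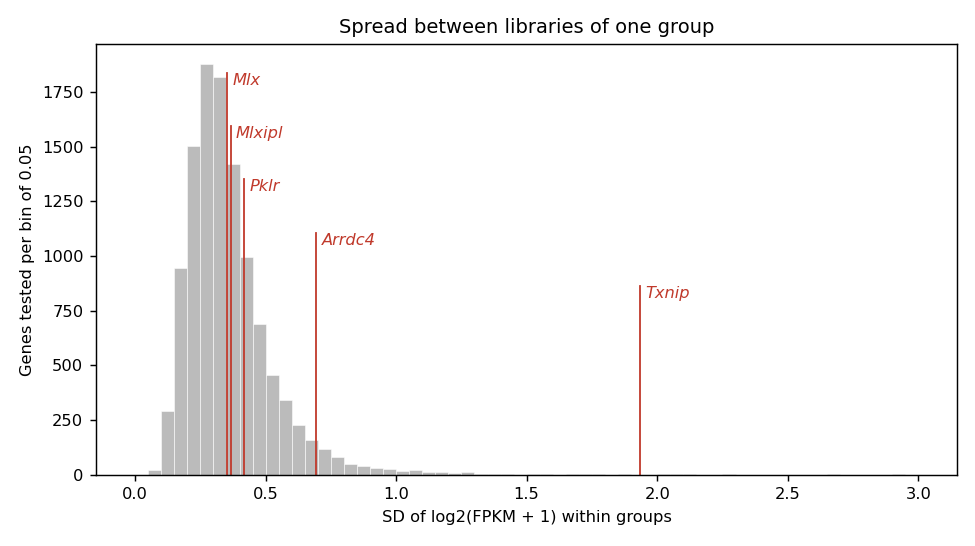
Number of tested genes (vertical axis) by the SD of log2(FPKM + 1) between libraries of one group (horizontal axis, bins of 0.05). The red lines mark the 5 genes, with *Mlx*, *Mlxipl* and *Pklr* in the bulk at 0.35 to 0.42, *Arrdc4* at 0.69 and *Txnip* at 1.93. The pseudocount compresses the spread of *Pklr*, the lowest of the 5 in FPKM.

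*Txnip* and *Arrdc4* varied together from library to library. After subtraction of each group's mean, Pearson's r between them over the 11 libraries was 0.842 (p = 0.00376, exact permutation of libraries within groups, two-sided, 0.0376 after adjustment over the 10 pairs of the 5 genes). Spearman's rho was 0.755 (exact permutation p = 0.0162, adjusted 0.0883), so the relation passed by r and not by rank. Without WT replicate 1 and euglycemic replicate 4, the libraries farthest from the median in *Txnip*, r was 0.826. *Txnip* and *Pklr* gave r = 0.648 (exact permutation p = 0.0315, adjusted 0.158) and rho = 0.709 (adjusted 0.0883), which did not pass. *Mlxipl* followed none of its targets, with r of 0.185 to *Txnip*, 0.257 to *Arrdc4* and -0.460 to *Pklr* (exact permutation, adjusted p of 0.638 to 0.800).

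The genes most like each of the 5 across all 11 libraries were listed by Pearson's r of log2(FPKM + 1), as a description, since the points share libraries and groups. Those nearest to *Txnip* were *Fosb* (r = 0.964), an immediate early transcription factor, *Tent5c* (0.956), a poly(A) polymerase, and *Cry2* (0.942), a clock repressor. *Fosb* FPKM ran from 5.30 in euglycemic replicate 4, where *Txnip* was lowest as well, to 77.5 in WT replicate 3. *Arrdc4* was nearest to *Wipi1* (0.891), *Gm26952* (0.885) and *Dglucy* (0.876), with *Txnip* at rank 13. Among the genes most like *Txnip*, *Arrdc4* stood at rank 126 (0.804) and *Pklr* at rank 816 (0.639). *Mlxipl* was nearest to *Sppl2b* (0.948), *Acads* (0.941) and *Ddit4* (0.926), *Mlx* to *Tuba1c* (0.978), *Memo1* (0.954) and *Dus2* (0.921), and *Pklr* to *6330403K07Rik* (0.951), *Rtn1* (0.942) and *Syce1* (0.926).

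Because *Fosb* led that list, the relation to a list of 10 immediate early genes (*Fos*, *Fosb*, *Jun*, *Junb*, *Egr1*, *Egr2*, *Ier2*, *Ier3*, *Nr4a1* and *Atf3*), which cells switch on quickly after stimulation, was examined for all 5 genes, a choice made after the data were seen. The mean log2(FPKM + 1) of the 10 genes ran from 5.05 in euglycemic replicate 4 to 7.21 in euglycemic replicate 1. Within groups, Pearson's r of *Txnip* with it was 0.942 and rho 0.909, and r was 0.913 without WT replicate 1 and euglycemic replicate 4. With *Fosb* left out of the mean, r was 0.926 and rho 0.864. Since the list was taken up because one of its genes was nearest to *Txnip*, these are descriptions and not tests. *Arrdc4* gave r = 0.666. *Fos* itself spanned 171.6 to 972.2 FPKM in WT, 91.1 to 339.4 FPKM in diabetic and 55.7 to 2072.9 FPKM in euglycemic libraries. None of the 10 genes was called in any of the 4 comparisons (0.00889 to 1.05% of all genes), and *Junb* (366.1 ± 70.8 FPKM in diabetic, 451.7 ± 144.6 FPKM in euglycemic libraries, SD, n = 4) and *Jun* likewise missed.

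With the immediate early mean as a covariate, the *Txnip* glycemia difference was 0.50 (interval -0.35 to 1.35) and its genotype difference -0.091 (interval -0.95 to 0.76), against -1.23 without the covariate. With *Fosb* left out of the mean they were 0.68 (interval -0.26 to 1.62) and -0.19 (interval -1.13 to 0.75). The covariate was picked for its likeness to *Txnip*, so the narrower intervals follow from that choice. None of the 5 genes was called in either fit, while the fit with all 10 genes called 0.231% of all genes for glycemia and 1.35% for genotype. What raises the immediate early genes in some libraries was not tested.

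**Figure D4:**
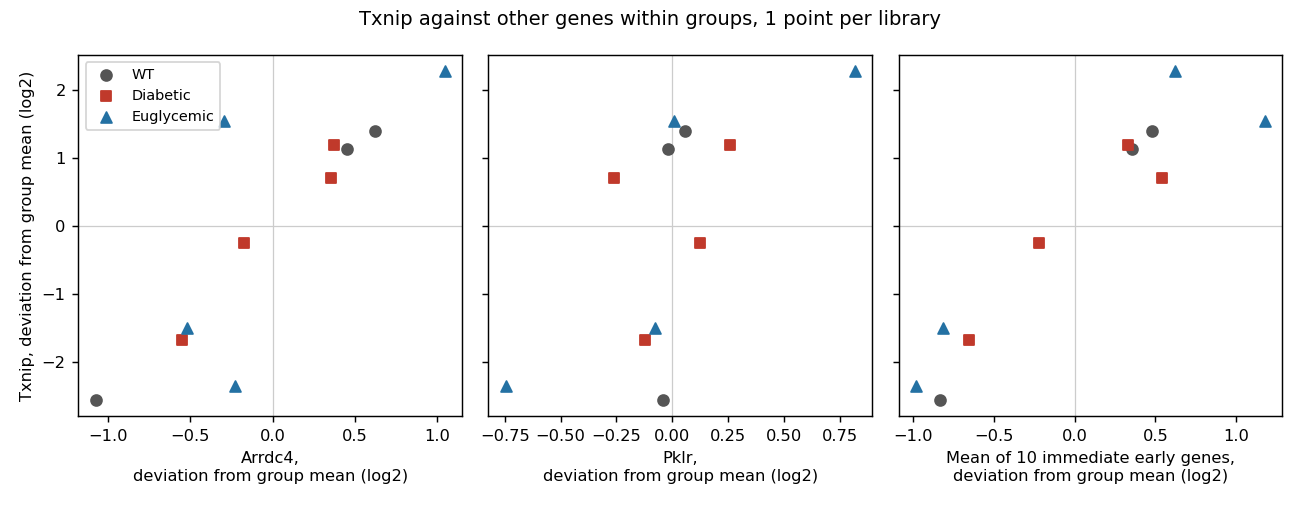
Deviation of *Txnip* from its group mean in log2(FPKM + 1) (vertical axis) against that of *Arrdc4*, *Pklr* and the mean of 10 immediate early genes (horizontal axes, log2), with 1 point per library and groups as circles (WT), squares (diabetic) and triangles (euglycemic). Pearson's r is 0.842, 0.648 and 0.942, and all 3 groups have libraries above and below 0 in *Txnip*. Both ends of the *Pklr* axis (-0.745 and 0.818) are euglycemic libraries.

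Few genes in the rest of the glucose-sensing network were called, as few genes were called at large. *Mlxip* (MondoA) had 4.24, 4.26 and 5.83 FPKM in WT, against means of 2.90 ± 0.408 FPKM (SD, n = 4) for diabetic mutants and 2.99 ± 0.525 FPKM (SD, n = 4) for euglycemic ones. All 8 mutant libraries lay below the 3 WT libraries, the genotype difference was -0.55 (interval -0.91 to -0.19, unadjusted p = 0.00612, adjusted p = 0.193 from limma), and the glycemia difference was -0.030 (interval -0.41 to 0.35). It was therefore not called. Of the 11 members of the MondoA and MAX network, 8 were tested and 0 called in any comparison, against 0.00889 to 1.05% of all genes. At an unadjusted p of at most 0.05, 2 of the 8 were higher in diabetic than in euglycemic libraries, where 20.6% of all genes passed in either direction. Those with the highest mean FPKM were *Mxd1*, *Max* and *Mxi1*, the partner of MYC (MAX) and repressors that compete for it, with glycemia differences of 0.52, 0.59 and 0.41 (adjusted p = 0.216, 0.403 and 0.437 from limma).

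Of 30 other genes known as ChREBP targets, mostly from liver, all were in the table and 21 were tested. Between diabetic and euglycemic libraries 0 were called (0.00889% of all genes), with 10 differences above 0 and 11 below and a median of -0.040. Between all mutants and WT 1 was called (1.05% of all genes), and the median was -0.12. The most expressed targets, *Acly* (citrate cleavage for lipid synthesis), *Klf10* (a glucose-induced repressor) and *Gcgr* (the glucagon receptor), had glycemia differences of 0.43, 0.49 and -0.13 (adjusted p = 0.457, 0.458 and 0.809 from limma). *G6pc* and *Ppp1r3g* were listed at 0 in all 11 libraries.

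Upstream, glucose enters the β-cell through GLUT2 (*Slc2a2*) before its phosphorylated form activates ChREBP. *Slc2a2* FPKM was 69.7, 87.0 and 70.0 in WT, 16.3, 13.1, 21.4 and 19.4 in diabetic and 29.6, 18.9, 24.5 and 14.0 in euglycemic libraries. On the log2(FPKM + 1) scale it fell by 2.06 in diabetic (standard error 0.25, adjusted p = 0.00254 from limma) and by 1.79 in euglycemic mice (adjusted p = 0.00712), with no overlap with WT and a glycemia difference of -0.27 (adjusted p = 0.523). *G6pc2*, the islet glucose 6-phosphatase, had a genotype difference of -0.46 (adjusted p = 0.617 from limma). Of 10 genes of glucose entry and phosphorylation, 6 were tested and *Slc2a2* alone was called, in the comparisons with WT, which called 0.551 to 1.05% of all genes. The glucose transporter thus fell with genotype. In the same libraries none of the 5 ChREBP genes was called, which does not show that they were unchanged. Their genotype intervals all included 0 and left room for a change.

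Among the α-arrestins, 5 of 6 were tested and 0 called (0.00889 to 1.05% of all genes), with *Arrdc2* at 6.28 FPKM on average. *Arrdc3*, named after its values were seen, had 3.56, 7.29 and 9.76 FPKM in WT, 5.13, 1.49, 5.49 and 4.54 FPKM in diabetic and 4.14, 1.92, 1.04 and 0.177 FPKM in euglycemic libraries, with a difference of -1.60 between euglycemic and WT (adjusted p = 0.174 from limma). Its SD within groups, 0.75, was next to that of *Arrdc4*. Of the 13 genes listed for the thioredoxin system (thioredoxins, which TXNIP binds, their reductases, peroxiredoxins, sulfiredoxin and a glutaredoxin), all were tested and 0 called (0.00889 to 1.05% of all genes). At an unadjusted p of at most 0.05 for glycemia, 1 was higher and 5 were lower in diabetic libraries, 6 of 13 against 20.6% of all genes. *Txn1*, thioredoxin, had 36.7 to 52.5 FPKM in diabetic and 68.2 to 78.8 FPKM in euglycemic libraries and a glycemia difference of -0.72 (interval -1.11 to -0.34, adjusted p = 0.122 from limma). *Prdx1* and *Txnrd1* gave -0.62 (adjusted p = 0.313) and 0.37 (adjusted p = 0.302). Of 17 regulators and cofactors of ChREBP, 15 were tested and 0 called (0.00889 to 1.05% of all genes), while 6 of the 15 were higher in diabetic than in euglycemic libraries at an unadjusted p of at most 0.05 (20.6% of all genes). *Ywhab* (a 14-3-3 protein that retains ChREBP), *Prkaa1* (a subunit of AMPK) and *Foxo1*, the most expressed of them, had genotype differences of 0.027, -0.57 and 0.19 (adjusted p = 0.983, 0.199 and 0.863).

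Some exons of 4 of the 5 genes overlap a gene on the opposite strand, and the counting is not stated to use strand, so reads of both cannot be told apart there. In *Txnip* this is 19.4% of exon bases, shared with *Gm15441*, which had 0.378 to 3.54 FPKM. That was at most 41.3% of *Txnip*, in euglycemic replicate 4. In *Pklr* it is 22.0%, shared with *Hcn3*, an ion channel gene that had 1.51 to 3.19 FPKM, about as much as *Pklr* in most libraries but 669% of it in euglycemic replicate 4, where *Pklr* was lowest. The share is 19.3% in *Mlx* (*Psmc3ip*, at most 1.497 FPKM) and 4.2% in *Mlxipl* (*Gm43500*, at most 0.774 FPKM). *Arrdc4* overlaps none.

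The libraries held about 9500000 to 16600000 fragments, inferred from the steps between low values, since the table gives no totals. *Rptor*, the gene deleted, had 0.948 to 1.79 FPKM in WT, 0.485 to 0.937 FPKM in diabetic and 0.423 to 0.623 FPKM in euglycemic libraries, with a difference of -0.57 on the log2(FPKM + 1) scale between all mutants and WT (exact permutation p = 0.00606, two-sided, the smallest that 8 libraries against 3 allow). It was -0.48 between diabetic and WT (exact permutation p = 0.0571) and -0.65 between euglycemic and WT libraries (exact permutation p = 0.0286). All 9 β-cell markers were detected in each group, with summed levels of 157543 to 191424, 138209 to 206521 and 117257 to 202206 FPKM. *Ins1*, *Ins2* and *Iapp* made up 98.6 to 99.7% of these sums, and the other 6 markers summed to 1637 to 2159 FPKM in WT, 649.7 to 1156 FPKM in diabetic and 826.1 to 1671 FPKM in euglycemic libraries. Between all mutants and WT, 8 of the 9 differences were below 0, with a median of -0.53, and *Slc30a8*, a zinc transporter of the insulin granule, was called lower (682 ± 35.8 FPKM in WT, SD, n = 3, against 200 ± 41.3 in diabetic and 278 ± 54.8 in euglycemic libraries, SD, n = 4). The summed α-, δ- and PP-cell markers lay above every WT library in all 8 mutant libraries, the duct sum in 7 of 8, the endothelial sum in 6 of 8, the acinar sum in 5 of 8, the stromal sum in 4 of 8 and the immune sum in 1 of 8. The 9 acinar markers summed to 3.54 to 35.6 FPKM in WT, 15.7 to 2123 in diabetic and 14.4 to 3874 in euglycemic libraries, and the α-cell list to 1047 to 2438, 3935 to 14718 and 4759 to 23767 FPKM. Euglycemic replicate 4, lowest in *Txnip* and *Pklr*, had the highest acinar sum, while euglycemic replicate 3, with the next lowest *Txnip*, had 15.5 FPKM and WT replicate 1 had 3.54 FPKM. The 7 endothelial markers summed to 9.67 to 51.3 FPKM in diabetic and at most 2.73 FPKM in the other libraries. The 7 immune markers summed to 8.27 to 22.0 FPKM in WT, 0.552 to 68.4 FPKM in diabetic and 0.713 to 11.7 FPKM in euglycemic libraries, with *Cd3e* at 0 throughout. The WT sum was mostly *Cd79a*, a B-cell gene, with 20.1, 8.20 and 9.22 FPKM in WT and at most 1.10 FPKM in the mutants, called lower in both groups. Without it the immune sum was 0.0657 to 1.97 FPKM in WT and 4 of 8 mutant libraries lay above every WT library. Diabetic replicate 1 was highest in these and in the stromal markers (15.8 FPKM, against at most 0.496 FPKM in WT). The part of these cells in the values of the 5 genes was not tested. In RNA of a sorted population, fewer cells expressing a gene and less RNA per cell cannot be told apart.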

How the data were processed

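RNA was sequenced from GFP-sorted β-cells in 3 WT, 4 diabetic and 4 euglycemic βRapKOGFP libraries. The values the authors deposited are FPKM, with 1 column for each library. The submitters' processing notes name HISAT2 2.0.4, StringTie 1.3.0 and edgeR with mm10, whereas the methods of the study name Tophat and Cufflinks, and which made the values is not settled. The table has 34745 entries, 478 of them without a symbol. Where a symbol recurred, the entry with the highest mean was kept (17 left out). Annotation was GENCODE vM21 on GRCm38.

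Fits used limma 3.58.1 in R 4.3.3 (lmFit, eBayes with a trend) on log2(FPKM + 1), so changes of low genes are understated, in 1 fit of all 11 libraries over the 11251 genes that reached 1 FPKM in 3 libraries, tested on simulated data first. A call was an adjusted p of at most 0.05 (Benjamini-Hochberg) with a change of at least 1.5-fold. Correlations used all 3456 permutations of libraries within groups. Python 3.11.15, numpy 2.4.6, pandas 2.3.3, scipy 1.17.1 and matplotlib 3.10.9 were used. Depth was inferred from 4502 single-exon genes of at least 500 bases, in which 92.7 to 97.3% of low values were whole multiples of one step. At these depths 1 fragment per kilobase equals 0.0601 to 0.105 FPKM. The study calls its repetitions biologically independent, but how many mice a library holds is not stated in the sources used here, so p-values measure the spread between libraries.

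The 5 genes, the gene lists and the motif were chosen with earlier results of these data known. Named were the 5 genes, each list's called genes and its 3 most expressed, *Mlxip*, *Pkm*, *Slc2a2*, *Rptor* and the 3 genes most alike each of the 5. Single-gene results of some genes this rule names are not reported here. Alternatives were the filter, the pseudocount, TPM, the median of ratios, library weights, no trend, a fit of the compared groups alone, the replicate number as a block, summed entries, each library left out, no fold criterion and unadjusted p.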

Additional observations from a re-analysis of the deposited data

Results flagged for a closer look

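*Arrdc4* in euglycemic replicate 2, at 15.7 FPKM, stood apart from the other 3 euglycemic libraries, which held 4.63, 5.58 and 5.89 FPKM. Its gap to the nearest of them was 0.886 of the group's whole range, above Dixon's 95% critical value for 4 libraries. It was the 1 case among 10 groups of 4 checked over the 5 genes, and chance gives such a case in about 1 in 20 groups. *Txnip* (151.4 FPKM) and *Pklr* (3.26 FPKM) were also highest in this library among the euglycemic ones, and the explanation was not tested.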

How the results depend on the processing

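Under 15 alternative settings and 11 fits that each left out 1 library, 515 values of the 5 genes were set against the main fit. Of these, 481 kept their direction and their side of the threshold, 33 changed sign without being called and 1 became a call. Many of the 481 could not change sign, so this count does not measure robustness. Another filter, no trend, no fold criterion and unadjusted p kept the main estimates. So did leaving out a library of a group not in the comparison. The sign changes were mostly those of *Arrdc4* (22 of 33), whose differences lay near 0. In the comparison of all mutants with WT its value, -0.0062 on the log2(FPKM + 1) scale, became 0.013 with a pseudocount of 0.1, 0.0030 with 0.5 and 0.022 on TPM. With library weights, *Arrdc4* turned to -0.25 in diabetic against WT, *Mlx* to 0.041 in all mutants against WT and *Txnip* to -0.11 in diabetic against euglycemic, and 1 of 5 genes was called in euglycemic against WT, where 20.3% of all genes were, *Mlxipl* at -0.68, whose adjusted p ran from 0.0155 to 1 over the alternatives (limma). With the immediate early mean as a covariate, added after the data were seen, *Txnip* turned to 0.16 in diabetic against WT, and *Arrdc4* to 0.28 in all mutants and 0.17 in euglycemic against WT, and with *Fosb* left out of that mean these were 0.15, 0.25 and 0.12. The correlation of *Txnip* with *Arrdc4* by rank, 0.755, did not pass after adjustment (exact permutation, adjusted p = 0.0883). Leaving out 1 library at a time called none of the 5 genes, while the share of all genes called ran up to 3.36% for glycemia, from 0.107 to 4.76% for euglycemic, 0.231 to 1.87% for diabetic and 0.267 to 1.57% for all mutants against WT. It moved *Txnip* between -0.26 (without euglycemic replicate 4) and 1.28 (without euglycemic replicate 2), *Mlxipl* between -0.039 and 0.25, *Mlx* between -0.67 and -0.32, *Arrdc4* between 0.049 and 0.57 and *Pklr* between 0.26 and 0.79 in diabetic against euglycemic, *Txnip* between -2.25 and -0.27, *Mlxipl* between -0.48 and -0.022, *Mlx* between -0.71 and -0.28, *Arrdc4* between -0.43 and 0.42 and *Pklr* between -0.033 and 0.14 in diabetic against WT, *Txnip* between -2.77 and -0.71, *Mlxipl* between -0.57 and -0.11, *Mlx* between -0.19 and 0.18, *Arrdc4* between -0.65 and 0.19 and *Pklr* between -0.73 and -0.21 in euglycemic against WT, and *Txnip* between -2.51 and -0.53, *Mlxipl* between -0.52 and -0.067, *Mlx* between -0.45 and -0.082, *Arrdc4* between -0.54 and 0.30 and *Pklr* between -0.34 and -0.080 in all mutants against WT. The causes of these shifts were not tested. All 5 genes passed the filter, so the exact test planned for any of them below it was not run on them.

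Replicate numbers did not pair the libraries, since deviations from the group means over the genes tested correlated at -0.132 on average in 10 same-numbered pairs (-0.368 to 0.212) and at 0.0433 in 30 others. With the number as a replicate block, 0 of 5 genes were called in any comparison, against 0 to 0.471% of all genes. *Arrdc4* turned to 0.061 in all mutants against WT, the 1 sign change of this fit.

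With 3 or 4 libraries a group, the 95% interval of the *Txnip* glycemia difference spans 0.286 to 7.22 times, which leaves its size and direction unresolved. *Pklr*, at 4.21 to 48.5 fragments per kilobase, is limited by depth as well, and the pseudocount understates its changes. Isoforms of *Mlxipl* and *Pklr* were not separated.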
